A study of Mus musculus with 6 samples.

Results

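Homeostatic microglia identity genes are the genes by which microglia, the resident macrophages of the brain, are told apart from other cells while they survey healthy tissue. The set described here had 35 genes, and each of them was found on the array among 23462 genes with a named probe. They were chosen as known identity genes of microglia, and the probes were found by matching the accession of each array probe to RefSeq symbols. To see how microglial PGC-1α bears on this identity after acute ischemic stroke (AIS), their levels were compared between microglia from mPGC-1α mice and from PGC-1α f/f mice, which served as controls.

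The control mice carried a loxP-flanked PGC-1α allele joined to eGFP. The mPGC-1α mice carried the same allele and, in addition, a tamoxifen-inducible Cre recombinase placed in the Cx3cr1 gene, so that PGC-1α would be overexpressed in microglia. Per the study's methods, all mice were male on a C57BL/6 background and received tamoxifen before occlusion of the middle cerebral artery, and microglia were isolated by magnetic selection for the surface receptor P2RY12. The labels give 3 samples without and 3 samples with PGC-1α overexpression, all male and 10 weeks old, 1 single-colour array each, and do not say whether a sample was 1 mouse or a pool. The p-values below measure only the spread between these samples.

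In the healthy brain, TGF-β signalling and the receptor CSF1R maintain microglia, and the transcription factors PU.1 (Spi1), IRF8, SALL1 and MEF2C hold the identity program in place. Surface receptors such as CX3CR1, which receives fractalkine from neurons, and GPR34 are part of that program. After injury such as stroke, microglia are known to lower many of these genes while they turn on genes of a reactive state.

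Values are given as the log2 level, which is the log2 of the processed spot intensity minus the 75th percentile of the array, so that 0 is the level that 75% of the spots on that array did not exceed. A difference is the mPGC-1α mean minus the control mean on that scale, where 1 is a 2-fold change. Levels were read within a probe across arrays and not between probes. The 75th percentile lay between 927 and 1540 intensity units over the 6 arrays, and between 71.0% and 86.5% of the spots that are not controls were well above background. The number of arrays, 3 in each group, limits the precision.

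Some values did not go with the labels of the arrays. Ppargc1a, which encodes PGC-1α, was not higher in the mPGC-1α samples (differences of -0.33 and -0.43 on its 2 probes, limma adjusted p of 0.8169 and 0.788). The paper reports higher PGC-1α in mPGC-1α microglia by immunostaining and qRT-PCR, in other samples. Whether these probes read the transcript of the engineered allele was not tested. Xist, the RNA that coats the silenced X of female cells, was at -5.21 on control array 2 and between -0.97 and -0.51 on the other 5 arrays, and the Y-linked gene Ddx3y was well above background on control array 2 only. Thus 5 of the 6 arrays went against the label male, and control array 2 stood apart from the others. The name mPGC-1α below is that of the label, and results that rest on control array 2 are given with and without it. In addition, the scanner software marked spots as non-uniform or as outliers, on 22 of the 51 member probes on mPGC-1α array 3 (5.66% of all probes there) against 2 to 9 member probes on each of the other arrays. Marked spots were left out of the tests and are shown where values of single arrays are given.

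All 51 member probes were well above background on all 6 arrays. For P2ry12, the gene of the receptor used for the selection, the control arrays gave 4.01, 3.92 and 3.54 and the mPGC-1α arrays 3.87, 3.88 and 3.68, in the order of the array numbers, which holds for all values below. Marks fell on control arrays 1 and 2 and on mPGC-1α array 3, so that the P2ry12 probe did not enter the test. Over all its spots the groups overlapped (difference -0.02, limma adjusted p of 0.9913 with marked spots kept). Markers of other brain and blood cells were also above background, as given further on, so that a level above background does not by itself mark the samples as microglia.

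As a set, the members were close to the same level in both groups. The mean level over the 33 genes that could be tested, which leaves out Tmem119 and Ctss, was 3.18, 3.04 and 3.23 on the control arrays. It was 3.10, 3.09 and 3.25 on the mPGC-1α arrays. Both groups spanned almost the same range. At the brightest tested probes, the difference was above 0 for 22 of the 33 genes (61.7% of all genes) and below 0 for 11. Its median was 0.10 against 0.09 over all 18222 genes tested. A total of 29 genes lay within 0.5 of 0, as did 84.9% of all genes, and for 28 the 95% confidence interval of the difference lay within 1 of 0, against 67.6% of all genes. A change of 2-fold or more thus lay outside the interval for those 28 genes, and for the other 5 it did not.

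No member gene passed the threshold of 0.05 in the limma test across all 40745 probes (0 of 33, against 0% of all genes). Adjusted p-values ranged from 0.6694 to 0.9984. At an unadjusted p below 0.05 there were 2 member genes, against 5.94% of all genes. These were Cx3cr1, which was lower (2.97% of all genes), and Runx1, which was higher (2.97% of all genes). Over all probes rather than genes, 4 of the 46 tested member probes had an unadjusted p below 0.05, of which 3 were lower (4.85% of all probes) and 1 was higher (2.3% of all probes). The fit with the replicate number as a block also called 0 members (0.00549% of all genes), with a smallest adjusted p of 0.0983 at Cx3cr1. At least 2-fold lower were 3 members, Olfml3, Cx3cr1 and Crybb1 (2.21% of all genes), and 0 were at least 2-fold higher (1.04% of all genes).

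**Figure D1:**
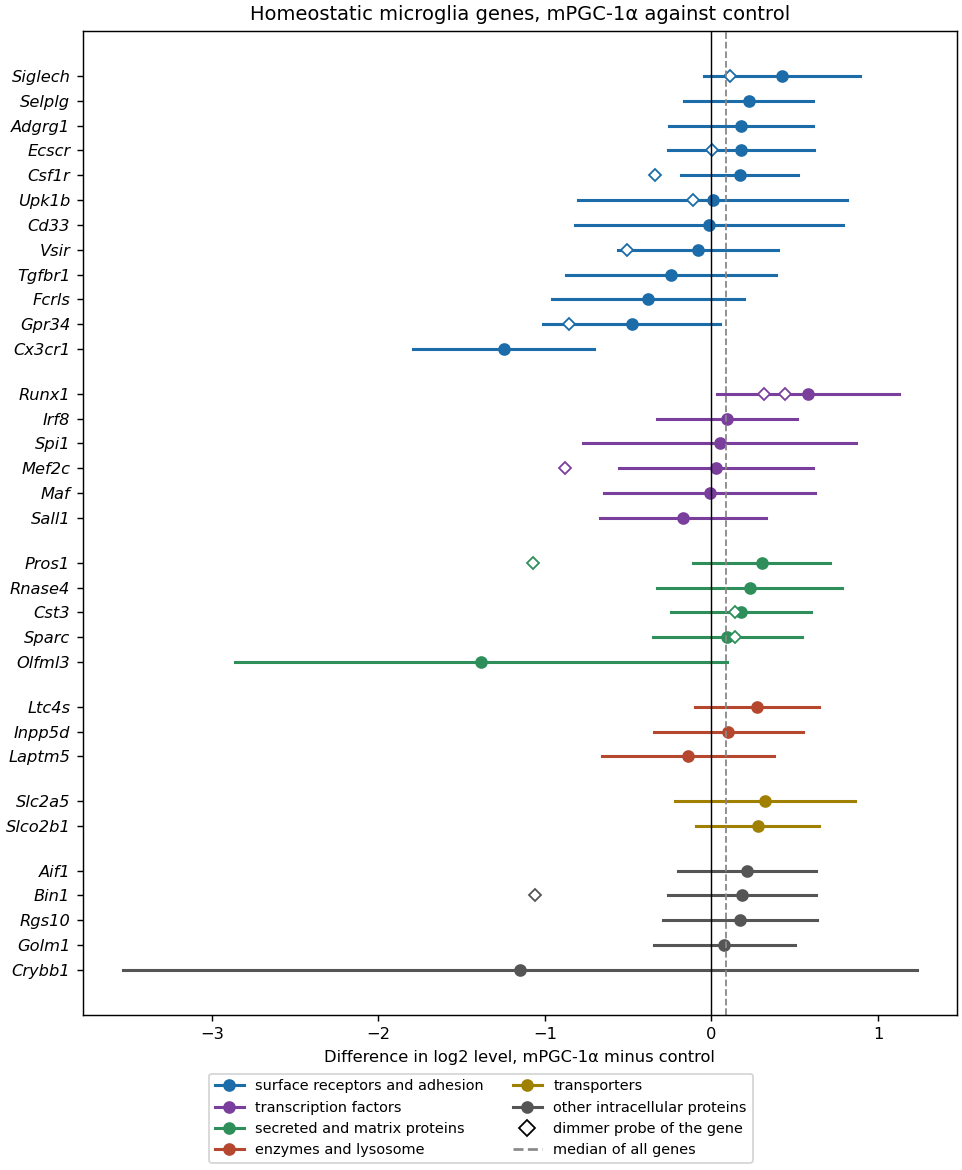
Difference in log2 level between mPGC-1α and control samples for the 33 tested member genes, grouped by the role of the protein. Filled points are the brightest tested probe with the 95% confidence interval of limma, and open diamonds are dimmer tested probes of the same gene. Brighter probes of Cx3cr1 and Tgfbr1 that could not be tested are not shown. The dashed line is the median of all genes, 0.09. Most points lie near 0, and Cx3cr1, Olfml3 and Crybb1 lie below -1, the latter pair with wide intervals.

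Among the 18 members with a value on all 6 arrays, the groups did not overlap for 5. Cx3cr1 was lower (1 gene, against 3.87% of all genes), and Csf1r, Runx1, Ltc4s and Slco2b1 were higher (4 genes, against 7.34% of all genes). When marked spots were kept, so that each of the 33 genes had 6 values, 1 was lower (3.63% of all genes) and 7 were higher (7.7% of all genes), the additional ones being Adgrg1, Inpp5d and Golm1. In the series matrix Cx3cr1 stayed without overlap, whereas the groups overlapped for each of the 7 higher genes.

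Of all the members, Cx3cr1, the fractalkine receptor, had the smallest p. On its brightest tested probe (A_52_P99810) the control arrays gave 3.81, 3.28 and 3.71, which average 3.60 ± 0.28 (SD, n = 3). The mPGC-1α arrays gave 2.38, 1.95 and 2.72, which average 2.35 ± 0.39 (SD, n = 3). Every mPGC-1α sample was below every control sample. The difference was -1.25 (SE 0.24, 95% confidence interval -1.79 to -0.70), which is 2.38-fold lower, with a limma adjusted p of 0.6694. In an exact two-sided permutation test p was 0.1, below which 3 against 3 samples cannot go. The difference was -1.38 on the first slide and -0.98 on the second. Without control array 2 it was -1.41 and passed the test (limma adjusted p of 0.01276). On the series matrix values the difference was -1.38, again without overlap.

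The second Cx3cr1 probe (A_55_P2007964) did not separate the groups, although it was the brighter of the 2. Its means over all spots were 3.65 for control and 3.30 for mPGC-1α samples, against 3.60 and 2.35 on the first probe. Its levels were 3.57, 4.02 and 3.35 on the control arrays and 3.17, 3.26 and 3.48 on the mPGC-1α arrays, with marks on control array 2 and on mPGC-1α arrays 2 and 3, and it did not enter the test. Over all its spots the difference was -0.35 (SE 0.21, limma adjusted p of 0.766). The value of mPGC-1α array 3 lay above that of control array 3. The Cre allele of the mPGC-1α mice lies in the Cx3cr1 gene and the controls lack it, so an effect of that allele on Cx3cr1 and an effect of PGC-1α cannot be told apart. Sequences of the probes were not used here.

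**Figure D2:**
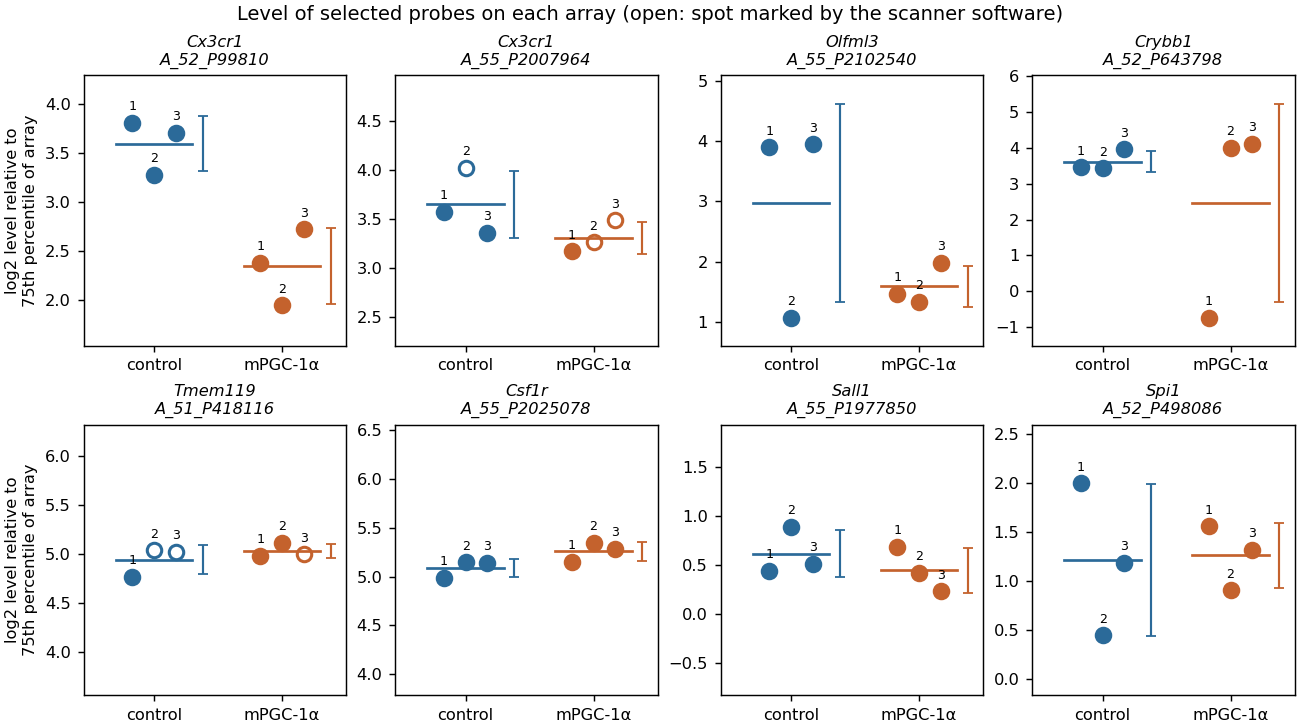
Log2 level, relative to the 75th percentile of the array, of 8 probes on each of the 3 control and 3 mPGC-1α arrays. Points carry the number of the array, open points are spots marked by the scanner software, horizontal lines are group means over all points, and vertical bars are the SD. Only the first Cx3cr1 probe and Csf1r separate the groups. Control array 2 is low for Olfml3 and Spi1, and mPGC-1α array 1 is low for Crybb1.

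The surface receptors and adhesion proteins split evenly. Of the 13, 12 were tested, of which 6 were higher and 6, Cx3cr1 among them, lower (median 0.00), and 1 (Cx3cr1) had an unadjusted p below 0.05. Csf1r, the receptor on which microglia depend for survival, had levels of 4.99, 5.14 and 5.14 on the control arrays and 5.15, 5.34 and 5.28 on the mPGC-1α arrays. Each mPGC-1α value was above each control value, but by a narrow margin. The difference was 0.17 (SE 0.16, limma adjusted p of 0.8552). It was -0.03 in the series matrix, where the groups overlapped, and -0.34 on the second, dimmer probe.

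Gpr34, a receptor for lysophosphatidylserine, had levels of 2.98, 2.93 and 2.98 on the control arrays and 2.53, 2.42 and 3.02 on the mPGC-1α arrays, with marks on control array 1 and mPGC-1α array 3. The groups did not overlap in the unmarked values, and did once the marked spots were kept. Its difference was -0.48 (SE 0.23, limma adjusted p of 0.7305). A dimmer Gpr34 probe gave -0.86 (SE 0.36, limma adjusted p of 0.6962), with an unadjusted p below 0.05, and levels of 2.51, 1.72 and 2.76 against 1.599, 0.92 and 1.77, of which both array 3 values were marked. Both probes were thus lower in the mPGC-1α samples without passing the test.

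Siglech, a sialic acid binding lectin, had levels of 3.99, 4.22 and 3.87 on the control arrays and 4.57, 4.33 and 4.21 on the mPGC-1α arrays, the last of them marked. The groups overlapped only through that marked value, and the difference was 0.42 (SE 0.20, limma adjusted p of 0.7305). Adgrg1, an adhesion G protein-coupled receptor, had levels of 3.54, 3.60 and 3.74 against 3.80, 3.81 and 3.82, the last of them marked. These groups did not overlap, yet the difference was small, 0.18 (SE 0.19, limma adjusted p of 0.8824).

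Tmem119, a transmembrane protein widely used to stain microglia, was measured by 1 probe that was marked on control arrays 2 and 3 and on mPGC-1α array 3, and it was therefore not tested. Its levels were 4.76, 5.03 and 5.02 on the control arrays and 4.98, 5.11 and 4.99 on the mPGC-1α arrays. The groups overlapped, with a difference of 0.09 (SE 0.16, limma adjusted p of 0.9302) when marked spots were kept. Fcrls, an Fc receptor-like molecule, had a difference of -0.38 (SE 0.25, limma adjusted p of 0.803), and -0.58 without control array 2. For the remaining surface genes the differences at the brightest tested probe lay between -0.24 for Tgfbr1, a receptor for TGF-β, and 0.22 for Selplg, the P-selectin ligand. A brighter Tgfbr1 probe (A_52_P4538) was marked on control array 3 and mPGC-1α arrays 1 and 3 and was not tested. Over all its spots the difference had the opposite sign, 0.22 (SE 0.24, limma adjusted p of 0.8755 with marked spots kept). Vsir, an inhibitory checkpoint molecule, had -0.08, Cd33, a sialic acid binding receptor, -0.01, the tetraspanin gene Upk1b 0.01, and Ecscr, also known from endothelium, 0.17. None of these separated the groups. Without control array 2 the differences of Vsir and Upk1b were -0.16 and -0.46. A second Vsir probe (A_55_P2115136) was almost as bright, with means of 3.55 for control and 3.04 for mPGC-1α samples. Its difference over all arrays was -0.51 (SE 0.28, limma adjusted p of 0.7604), with overlap.

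The 6 transcription factors did not move together. Of them 4 were higher and 2 lower (median 0.04). Runx1, a factor of early blood and microglia development, had levels of 1.71, 0.91 and 1.45 on the control arrays and 1.92, 1.75 and 2.14 on the mPGC-1α arrays. Each mPGC-1α value was above each control value, with the nearest pair 1.75 and 1.71. The difference was 0.58 (SE 0.24, 95% confidence interval 0.03 to 1.12, limma adjusted p of 0.6864), and 0.36 without control array 2, which held the lowest value. On 2 other Runx1 probes the differences were 0.32 and 0.44, with overlapping groups, and in the series matrix, 0.53, also with overlap.

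Sall1, a factor that in the brain's macrophages is restricted to microglia, had levels of 0.45, 0.89 and 0.52 on the control arrays and 0.69, 0.42 and 0.24 on the mPGC-1α arrays. These overlapped, and the difference was -0.17 (SE 0.22, limma adjusted p of 0.9101). Without control array 2, which held the highest value, it was -0.03. Spi1, which encodes PU.1, had levels of 2.00, 0.44 and 1.18 against 1.56, 0.90 and 1.31. Its spread among the control arrays, from 0.44 on control array 2 to 2.00, exceeded the difference of 0.05 (SE 0.36, limma adjusted p of 0.9876). Without control array 2 the difference was -0.33.

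Irf8, the partner of PU.1, had a difference of 0.09 (0.20 without control array 2), and Maf, a factor of mature macrophages, of -0.01. Mef2c had a difference of 0.03 (SE 0.25) on its brightest probe. A dimmer Mef2c probe (A_55_P2155620) had levels of 0.81, -0.22 and 0.48 on the control arrays and -0.48, -0.78 and -0.30 on the mPGC-1α arrays. All of the mPGC-1α values there lay below all of the control values. The difference of that probe was -0.88 (SE 0.29, limma adjusted p of 0.6694), with an unadjusted p below 0.05, so that the 2 probes of Mef2c did not give the same result.

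Of the 5 genes for secreted and matrix proteins 4 were higher and 1 was lower, with a median difference of 0.18. The lower one was Olfml3, an olfactomedin-like matrix protein, whose 1 probe had the lowest difference of all members, -1.38 (SE 0.66, 95% confidence interval -2.86 to 0.09, limma adjusted p of 0.722). Its levels were 3.90, 1.07 and 3.95 on the control arrays and 1.47, 1.33 and 1.98 on the mPGC-1α arrays. Control array 2 had the lowest value of all 6 arrays, while the other 2 control arrays were well above every mPGC-1α array. Without control array 2 the difference was -2.34 (limma adjusted p of 0.001153).

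The differences of the other secreted proteins were small at the brightest probes. They were 0.30 for Pros1, a ligand of the receptors that recognise dying cells, 0.23 for Rnase4, a secreted ribonuclease, 0.18 for Cst3, the protease inhibitor cystatin C, and 0.10 for Sparc, a matrix glycoprotein. Without control array 2, Rnase4 had a difference of 0.05 and Cst3 of 0.34. No group of values stood clear of the other, although in the series matrix both Cst3 probes were lower in the mPGC-1α samples without overlap (differences of -0.14 and -0.15). A dimmer Pros1 probe gave -1.07 (SE 0.58), with levels of 1.30, -1.14 and 1.36 on the control arrays and -0.38, -0.79 and -0.52 on the mPGC-1α arrays. As for Olfml3, control array 2 had the lowest value and the other control arrays the highest.

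Of the genes for enzymes and lysosomal proteins, Ltc4s, which makes leukotriene C4, had levels of 3.69, 3.97 and 3.84 on the control arrays and 4.12, 4.01 and 4.19 on the mPGC-1α arrays. These groups did not overlap, with a difference of 0.27 (SE 0.17, limma adjusted p of 0.7833). Inpp5d, the phosphatase SHIP1, which restrains signals of surface receptors, had levels of 2.56, 2.57 and 2.66 against 2.70, 2.70 and 3.06, the last of them marked. The gap between these groups was under 0.1, with a difference of 0.10 (SE 0.19, limma adjusted p of 0.9443). Ctss, the lysosomal protease cathepsin S, was marked on 5 of the 6 arrays and not tested, and its levels overlapped (5.26, 5.63 and 5.64 against 5.75, 5.82 and 5.63). Laptm5, a lysosomal membrane protein, had a difference of -0.14.

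Both transporters were higher in the mPGC-1α samples by less than the test could call. Slco2b1, an organic anion transporter, had levels of 3.53, 3.79 and 3.75 on the control arrays and 3.99, 3.92 and 4.004 on the mPGC-1α arrays. Its groups did not overlap, and the difference was 0.28 (SE 0.16, limma adjusted p of 0.779). Slc2a5, the fructose transporter GLUT5, had a difference of 0.32 (SE 0.24, limma adjusted p of 0.8167) with overlap.

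The last group holds other proteins of the cell interior. Crybb1, which encodes a beta-crystallin, had levels of 3.46, 3.42 and 3.95 on the control arrays and -0.73, 3.995 and 4.11 on the mPGC-1α arrays. One array thus decided its difference of -1.15 (SE 1.06, limma adjusted p of 0.8563), which became 0.44 without mPGC-1α array 1. Golm1, a Golgi membrane protein, had levels of 4.07, 3.97 and 4.11 against 4.14, 4.12 and 4.17, the last of them marked. These did not overlap, but the means differed by 0.08 (SE 0.19, limma adjusted p of 0.9585), and by 0.03 without control array 2. Aif1, which encodes the microglia stain IBA1, had a difference of 0.21, Bin1, a membrane-bending protein, of 0.18, and Rgs10, a regulator of G protein signalling, of 0.17 (0.27 without control array 2), each with overlap.

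The members varied among the arrays to unlike extents. With marked spots kept, the range over the 6 arrays was below 1 for 27 of the 33 tested genes, with a median of 0.60. It was narrowest for Golm1 (0.20) and widest for Crybb1 (4.84), followed by Olfml3 (2.88), Cx3cr1 (1.86), Spi1 (1.55), Upk1b (1.42) and Runx1 (1.23). Of these, only Cx3cr1 and Runx1 separated the groups.

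Probes of the same gene often gave unlike values. Of the 12 members with several tested probes, 5 had differences of both signs (Bin1, Csf1r, Mef2c, Pros1 and Upk1b). The dimmer Bin1 probe had a difference of -1.06 (SE 0.54), with levels of 1.68, -0.87 and 0.51 on the control arrays and -0.22, -1.04 and -0.61 on the mPGC-1α arrays, where the brightest probe gave 0.18. Of the 13 dimmer member probes 7 were lower, with a median of -0.11. Among the 8004 dimmer probes of all genes, 60.0% were lower and the median was -0.12, so that the members' dimmer probes lay where those of all genes did.

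**Figure D3:**
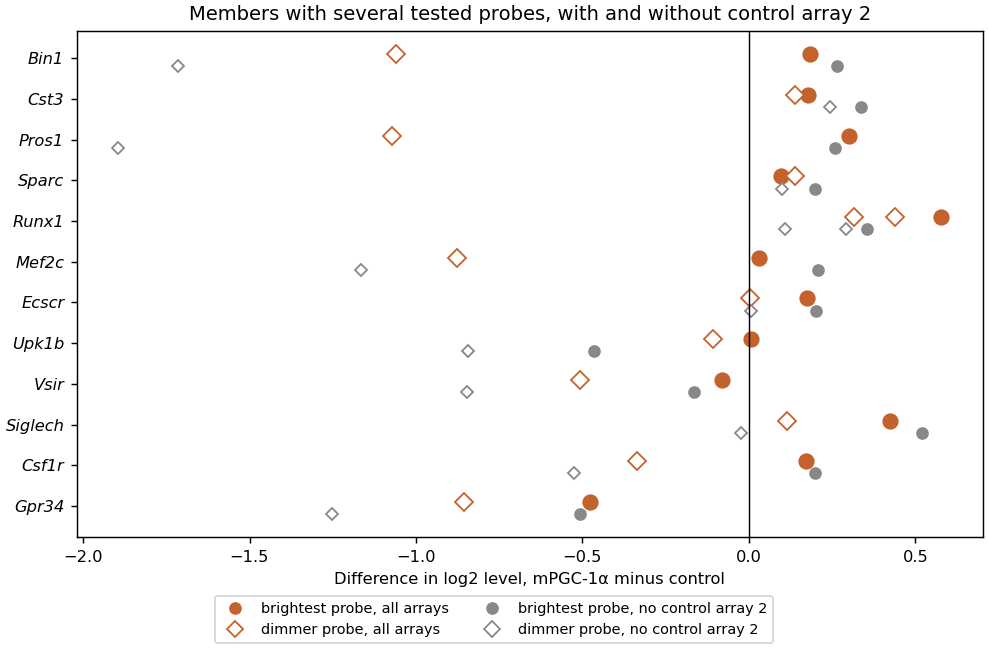
Difference in log2 level, mPGC-1α minus control, for each tested probe of the 12 member genes with several tested probes. Filled points are the brightest probe and diamonds dimmer ones, in colour over all arrays and in grey without control array 2. The dimmer probes of Bin1, Pros1 and Mef2c lie far to the left of the brightest probe, and further left without control array 2.

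Control array 2 weighed on these values. Without it, 28 member genes could be tested and 2 fell, Cx3cr1 and Olfml3 (2.69% of all genes were called lower and 0.412% higher). Of the 39 member probes tested 7 fell and 0 rose, against 2005 lower and 125 higher of all 39288 probes tested. Beside the probes of Cx3cr1 and Olfml3, these were the dimmer probes of Bin1 (-1.71), Mef2c (-1.17), Pros1 (-1.89), Upk1b (-0.84) and Vsir (-0.85), while the brightest probes of Bin1 and Pros1 had differences of 0.27 and 0.26 without passing the test. The brightest Mef2c probe, marked on control array 3, could not be tested without control array 2. The rise in calls without this array was thus not limited to the members. The share called lower was larger among member probes than among all probes.

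Small differences depended on how the arrays were scaled. In the series matrix, normalized between arrays by the authors, 15 of the 33 members were higher and 18 lower (median difference -0.04, against 0.08 over all genes). After quantile normalization 11 were higher and 22 lower, with a median of -0.04, against 0.07 over all genes. The splits were thus turned around relative to 22 higher and 11 lower with the 75th percentile, while Cx3cr1 stayed lower without overlap, at -1.36 after quantile normalization. No member passed the test under any of these scalings.

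The genes of the signals that keep microglia, a list of 24 that shares no gene with the members, were read beside them. Of the 22 tested, 14 had a difference above 0 and 8 below 0 (median 0.10), where 61.7% of all genes were higher. The limma test called 0 of them, with 2 lower at an unadjusted p below 0.05 (2.97% of all genes). These were Tgfb2, a TGF-β ligand (-1.05, SE 0.28, limma adjusted p of 0.6694), and Entpd1, the ectonucleotidase CD39 (-0.66, SE 0.27, limma adjusted p of 0.6826). Tgfb1, the main TGF-β ligand of microglia, had a difference of 0.09. Csf1, a ligand of CSF1R, had 0.93 with an SE of 0.64, and Il34, the other ligand, 0.08. Trem2, a lipid receptor, had a difference of 0.23, and its adaptor Tyrobp 0.14.

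Markers of several other cell types differed in level between the arrays, read beside the 61.7% of all genes that were higher and the 2.97% with an unadjusted p below 0.05 in each direction. Of 12 genes that mark neurons, 11 had the higher mean in mPGC-1α samples, 7 of them at an unadjusted p below 0.05, and their mean level ran from -1.74 to -1.27 on the control arrays and from -1.28 to -0.36 on the mPGC-1α arrays. Of 12 oligodendrocyte markers 11 were higher (4 at an unadjusted p below 0.05; mean level -1.45 to -0.58 against -0.58 to 0.18), and of 9 tested astrocyte markers 8 (4 at an unadjusted p below 0.05; -0.87 to -0.21 against -0.10 to 1.03). Markers of monocytes and border macrophages were lower for 13 of 15 (2 at an unadjusted p below 0.05; 0.35 to 0.90 against -0.27 to 0.70). The lists of neutrophil markers (4 tested, 3 higher and 1 lower, median 0.02, 0 at an unadjusted p below 0.05) and of endothelial and mural markers (8 tested, 5 higher and 3 lower, median 0.23, of which 1 was higher and 2 lower at an unadjusted p below 0.05) were also read. The list means of neurons, of monocytes and border macrophages, of neutrophils and of endothelial and mural cells overlapped between the groups, and those of oligodendrocytes and astrocytes did not. None of these markers passed the limma test. Of the endothelial and mural markers 2 were at background on every array, and of the other lists 0. In bulk samples such as these, fewer cells of a type and less RNA per cell cannot be told apart.

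The 14 members that are also well known in other brain cells, such as Sparc, Bin1 and Mef2c, had a median difference of 0.17, with 11 higher and 3 lower. The other 19 had a median of 0.05, with 11 higher and 8 lower. The part of RNA from other cells in these values was not tested. Of the markers of disease-associated microglia, the reactive state in which homeostatic genes are known to be lowered, 8 of 15 were higher and 7 lower (median 0.15). The limma test called 0 of these markers, and 1 was lower at an unadjusted p below 0.05 (2.97% of all genes).

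**Figure D4:**
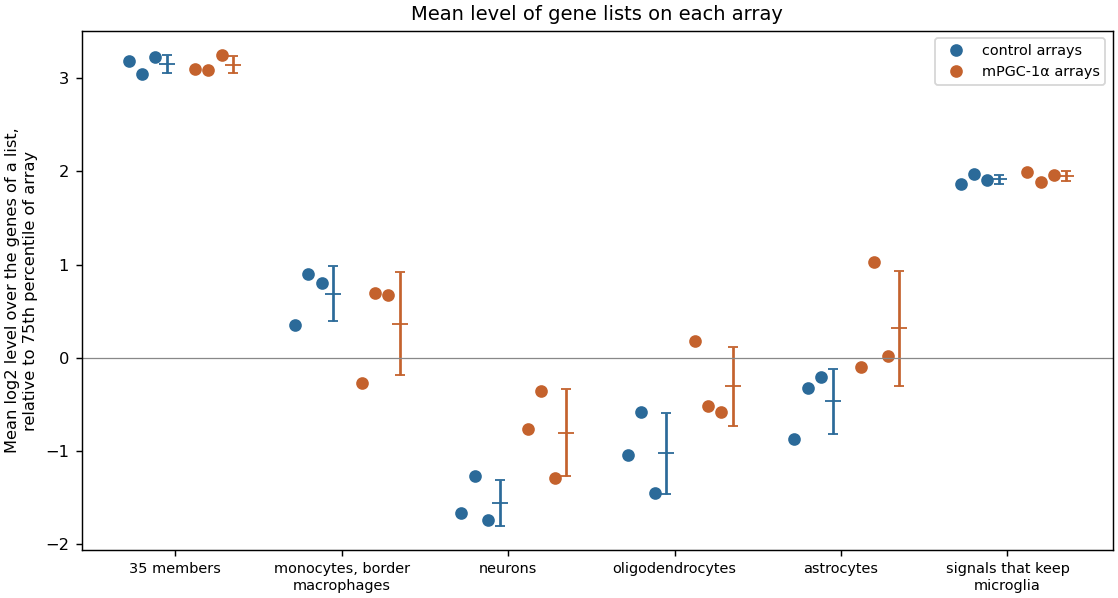
Mean log2 level over the tested genes of each list on each of the 3 control and 3 mPGC-1α arrays. Levels are relative to the 75th percentile of the array, with the group mean and SD beside the points. The entry named 35 members holds the 33 tested ones, whose mean lies between 3.04 and 3.25 on every array. Neuron, oligodendrocyte and astrocyte markers lie higher on most mPGC-1α arrays. Levels are read across arrays within a list and not between lists.

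Because Spi1, Irf8 and Mef2c are members and encode DNA-binding factors, the letters that such factors bind were looked up in the promoters of the members. Promoter sequences were those of RefSeq on GRCm38.p6, the 250 bases before the start of each gene, and 26 of the 35 members had an entry. The letters AGGAAGT, a PU.1 site, were found on either strand in 5 of the 26 (19.2%, against 8.8% of 27025 genes), namely Fcrls, Inpp5d, Ltc4s, Rnase4 and Sall1. The joint site of an ETS factor and an IRF was found in 0 of the 26 (2.68% of all genes). For MEF2 a loose pattern was searched, with fixed outer letters and any base in the middle. It was found in 1, Cx3cr1 (3.85%, against 3.7% of all genes). The middle of that match holds a G. Both shares thus count the loose pattern and not MEF2 sites as such. The stretches around these matches are printed because members whose differences had opposite signs carried the same PU.1 letters, and because Cx3cr1 had the smallest p of the members. Each is written 5′ to 3′ on the strand of its gene, with the matched letters in capitals (in Fcrls, the reverse complement of the PU.1 letters).
Cx3cr1, chr9:120068339-120068378, minus strand: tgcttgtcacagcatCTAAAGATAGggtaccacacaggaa
Ltc4s, chr11:50238628-50238664, minus strand: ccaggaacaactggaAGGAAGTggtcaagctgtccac
Fcrls, chr3:87263578-87263614, minus strand: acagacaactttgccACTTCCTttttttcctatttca
Inpp5d, chr1:87620278-87620311, plus strand: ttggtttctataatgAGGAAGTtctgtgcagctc
Rnase4, chr14:51095942-51095978, plus strand: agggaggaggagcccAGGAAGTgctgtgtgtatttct
Sall1, chr8:89043022-89043058, minus strand: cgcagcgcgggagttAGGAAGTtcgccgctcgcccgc

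The 5 genes with PU.1 letters did not share a direction, with differences of 0.27 for Ltc4s, 0.23 for Rnase4, 0.10 for Inpp5d, -0.17 for Sall1 and -0.38 for Fcrls. A match of letters is a description of the sequence and not a measured binding site.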

How the data were processed

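From the authors' scans, Agilent Feature Extraction 11.5.1.1 made the deposited files, which give 1 linear intensity for each spot. Background had been subtracted from this processed signal, but arrays had not been scaled to each other. The deposited series matrix holds log2 values that the authors normalized with GeneSpring. It covers 46731 of 56605 non-control probes, 47 of the 51 member probes among them, and correlated with the scanner levels at r of at least 0.999. The 1 green channel in the files was used, although the labelling protocol names Cy5.

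Levels were computed in R 4.3.3 (package data.table, version 1.17.8) as the log2 processed signal less the log2 of the array's 75th percentile over its 59305 non-control spots. Spots marked as outliers were left out, 0 spots were saturated, and spots of a probe were averaged. To be tested, a probe needed 2 or more values in each group, and in 1 group or both every unmarked value had to be well above background. Accessions were matched to RefSeq (GRCm38.p6) for 33767 probes (59.7%). The array grid follows an older build, so no array coordinates are given.

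The test of the groups was that of limma 3.58.1 (lmFit, eBayes with an intensity trend, group as the only term, two-sided, p-values adjusted by Benjamini-Hochberg across 40745 probes). An exact permutation test over 20 assignments was added for single genes. A gene was read at its brightest tested probe. For Cx3cr1 and Tgfbr1 a brighter probe was on the array but could not be tested. Other tested probes are in the plot of differences by probe, and only some of their values are given in the text. A dimmer Rgs10 probe (A_51_P218774) was also not tested. Over all its spots the difference was 0.12 (limma adjusted p of 0.9081 with marked spots kept). All members were named. Values of each array are given for members whose groups did not overlap or whose unadjusted p was below 0.05, and for Cx3cr1, Tmem119, Sall1, Csf1r and Spi1 whatever their values. Those of Olfml3, Crybb1, Ctss and of the dimmer probes of Pros1 and Bin1 were chosen after their values were seen. The members, lists and tests were chosen with earlier results of these data known. Alternatives were other scalings and background correction (normexp, offset 50), the series matrix, other filters, marked spots kept, slide or replicate number as a block, no intensity trend, averaging over a gene's probes, and each array left out.

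Arrays with the same replicate number deviated together from their group means (correlations across probes of 0.247, 0.224 and 0.171, against -0.337 to 0.035 for different numbers), and samples were therefore treated as paired by number in the block fit. The labels do not explain these numbers. Slide 1 held arrays 1 and 2 of each group and slide 2 array 3 of each, so that number 3 and slide 2 cannot be told apart. Array 3 of control and of mPGC-1α had the most marked spots (3010 and 4931). They also had the lowest shares of spots well above background (73.5% and 71.0%).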

Additional observations from a re-analysis of the deposited data

How the results depend on the processing

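No member passed the limma threshold over all arrays, and the count stayed at 0 under every alternative but 2. It was 2 without control array 2 (Cx3cr1 and Olfml3, 0 to 2 over the fits that left out 1 array) and 3 (Crybb1, Cx3cr1 and Olfml3) with the percentile taken over unmarked probes together with the replicate block, a pairing of settings added after seeing the data. In the latter fit 1720 probes were called, against 1 with the replicate block alone, the prior degrees of freedom by which limma weights its common variance were 74.6 against 9.30, and the SE of Crybb1, which was low on 1 array, was 0.33 against 0.66. With the replicate block alone 0 members passed, and the pairing changed no other call of a member. The median difference over members ranged from -0.044 to 0.19. The number of members whose groups did not overlap, 5 as reported, was 2 with quantile normalization, 2 with normexp, 2 with the series matrix and 2 with the percentile over unmarked probes, 8 with marked spots kept, and 5 to 10 when 1 array was left out. Of 33 genes, 16 kept their direction under every alternative run, among them Cx3cr1 (-1.43 to -1.05), Olfml3 (-2.34 to -0.90) and Runx1 (0.36 to 0.75). The others turned as follows. Quantile normalization gave Adgrg1 -0.012, Csf1r -0.021, Cst3 -0.14, Golm1 -0.11, Inpp5d -0.028, Irf8 -0.044, Mef2c -0.051, Rgs10 -0.025, Sparc -0.092, Spi1 -0.044 and Upk1b -0.075. Together with the replicate block it gave Csf1r -0.021, Cst3 -0.14, Golm1 -0.10, Inpp5d -0.010, Irf8 -0.044, Rgs10 -0.019, Slc2a5 -0.020, Sparc -0.058, Spi1 -0.044 and Upk1b -0.075. After normexp the values were -0.0057 for Csf1r, -0.13 for Cst3, -0.14 for Golm1, -0.061 for Irf8, -0.036 for Mef2c, -0.044 for Rgs10, -0.095 for Sparc, -0.035 for Spi1 and -0.0039 for Upk1b. In the series matrix they were 0.097 for Cd33, -0.026 for Csf1r, -0.14 for Cst3, -0.044 for Golm1, -0.037 for Irf8, -0.13 for Mef2c, -0.040 for Sparc, -0.036 for Spi1 and -0.065 for Upk1b. The mean of all tested probes gave Bin1 -0.44, Csf1r -0.084, Mef2c -0.20, Pros1 -0.39 and Upk1b -0.051. With marked spots kept, with or without the replicate block, Cd33 was 0.16, Mef2c was -0.047 and Vsir was 0.045. Vsir was 0.00052 with the slide or the replicate number as a block, and 0.011 with the percentile over unmarked probes and the replicate block. When 1 array was left out, Crybb1 ranged from -1.98 to 0.44, Irf8 from -0.016 to 0.20, Mef2c from -0.069 to 0.20, Spi1 from -0.33 to 0.44, Upk1b from -0.46 to 0.25 and Vsir from -0.16 to 0.00052. The cause of these turns was not tested. All member probes were well above background on all arrays.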
